A study of Mus musculus with 4 samples.

Results

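The genes described here encode the proteasome, its activators and the chaperones that build it. They are all genes whose row on the array carries a single symbol beginning with Psma, Psmb, Psmc, Psmd, Psme, Psmf or Psmg and a number, without Psmb8 and Psmb9, with the brightest row kept where a gene had more than 1. This gave 47 of the 22180 genes measured. By role they were 7 subunits of the alpha ring, 9 of the beta ring, 6 ATPases, 3 other subunits of the base, 8 of the lid, 5 activators or inhibitors, 7 assembly chaperones, and 2 genes that share the name pattern without being subunits (Psmc3ip and Psme3ip1). Psma4 lay only in rows shared with another symbol and is not among them. RNA had been taken from mouse fibroblasts of wild-type animals (WT, 2 arrays) and of animals lacking Zip13 (labelled Zip13KO, Zip13-/- in the study's design, 2 arrays) and hybridised to Affymetrix Mouse Gene 2.0 ST arrays. Zip13 is the zinc transporter encoded by Slc39a13. The sources used here do not give the strain, age or sex of the animals, where the fibroblasts came from, or which exons of Slc39a13 were altered. The labels call the replicates biological without naming animals or cultures, so the p-values measure only how far these samples scatter, and that scatter may be technical.

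The proteasome degrades proteins that carry ubiquitin chains. Its barrel, the 20S core, stacks rings of alpha subunits, which gate the entrance, around rings of beta subunits, some of which cut peptide bonds. A 19S cap recognises the ubiquitin chain, removes it and unfolds the protein: its base holds a ring of ATPases, and its lid holds the enzyme that takes the chain off. Other caps, the PA28 and PA200 activators, open the core without using ubiquitin. Interferons are known to raise the PA28 alpha and beta subunits and to replace the cutting beta subunits by Psmb8, Psmb9 and Psmb10, which favours peptides for presentation on MHC class I. When proteasomes are inhibited, the transcription factor Nfe2l1 is known to raise the subunit genes together.

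The median of all rows lay between 6.56 and 6.59 log2 intensity on the 4 arrays, so the arrays were alike at their medians. This does not show that bright rows were on 1 scale. Slc39a13 was at 8.94 and 8.85 in WT and at 8.89 and 8.98 on the arrays labelled Zip13KO, a difference of 0.04 log2 units (95% interval -0.12 to 0.20, limma adjusted p = 0.820), which does not check the labels, since it is not known whether its probes lie in the altered exons. Of 11 fibroblast markers, 10 were above the array median on every array. The summed intensity of the 11 ran from 20623 to 21639 in WT and from 16026 to 16771 in Zip13KO. By the test 6 of the 11 were lower and 1 was higher, beside 10.1% and 7.00% of all genes. Among markers of other cells, 2 of 6 for macrophages (Cd68 and Cd14), 2 of 4 for endothelium, 4 of 5 measured for epithelium and 2 of 3 measured for Schwann cells and melanocytes were above that median, with summed intensities of 607 to 659 in WT and 600 to 615 in Zip13KO for macrophages of 364 to 367 and 388 to 397 for endothelium, of 602 to 651 and 606 to 630.3 for epithelium, and of 326 to 341 and 321 to 353 for Schwann cells and melanocytes. Of the 6 macrophage markers 1 was higher and 2 were lower by the test, beside the same 7.00% and 10.1% of all genes. The part of these shifts in the results below was not tested. In such bulk samples fewer cells of a type and less RNA per cell cannot be told apart.

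Most proteasome genes did not pass the test described here. With the sign left aside, the median difference was 0.139 log2 units over the 47 genes, beside 0.0860 over all genes. Of the 5 activators and inhibitors 3 rose (60%, beside 7.00% of all genes). Of 33 subunits of the core and cap 5 fell (15.2%, beside 10.1%). Of the 47 genes, 9 passed the test (adjusted p under 0.05 in limma over all 22180 genes, on log2 intensity), 3 higher and 6 lower in Zip13KO. That is 19.1% of them, beside 17.1% of all genes called, 6.38% higher beside 7.00%, and 12.8% lower beside 10.1%, so the share called lay near that of all genes. Psme1, Psmf1 and Psme3, all of them activators or inhibitors, were higher, and Psmd2, Psmb2, Psmg1, Psmc3, Psmb7 and Psmd8 were lower. The median difference over the 47 genes was -0.04 log2 units, beside -0.00341 over all genes, and 31 of 47 lay below 0 (66.0%, beside 51.1% of all genes). The WT and Zip13KO arrays did not overlap for 33 of the 47 genes (70.2%, beside 51.5% of all genes), with 22 lower and 11 higher, beside 27.3% and 24.1% of all genes. An unadjusted p under 0.05 was found for 22 of 47 (46.8%, beside 25.9%). The proteasome genes are mostly bright: 45 of the 47 passed a filter on low values that kept 13819 genes, all but Psma8 and Psmb11. Among the genes kept by it, 37.5% had such an unadjusted p and 61.1% did not overlap. Their median difference with the sign left aside was 0.118 log2 units, beside 0.142 for these 45. In the fit over all 22180 genes 20% of these 45 were called, beside 26.1% of the genes kept. Lower calls made up 13.3% beside 15.5%, and higher calls 6.67% beside 10.6%. The lower calls numbered 3 without WT replicate 1, 2 without WT replicate 2, 4 without Zip13KO replicate 1 and 7 without Zip13KO replicate 2, where those of all genes numbered 1590, 1968, 1922 and 2346, beside 2234 with every array. The balance of directions depended on the scaling: after a further quantile normalization 6 genes were higher and 5 lower, beside 1901 and 2260 of all genes. The filter on low values, which leaves fewer genes to adjust over, gave 3 higher and 10 lower (11.8% and 17.0% of all genes kept), or 28.9% called beside 28.8%. The lower calls gained by it were Psma2, Psmb4, Psmc1 and Psmd7 (limma adjusted p from 0.0402 to 0.0437). With 2 arrays in each group the smallest two-sided p of an exact permutation test is 0.333, and the calls therefore rest on limma's pooled spread.

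**Figure D1:**
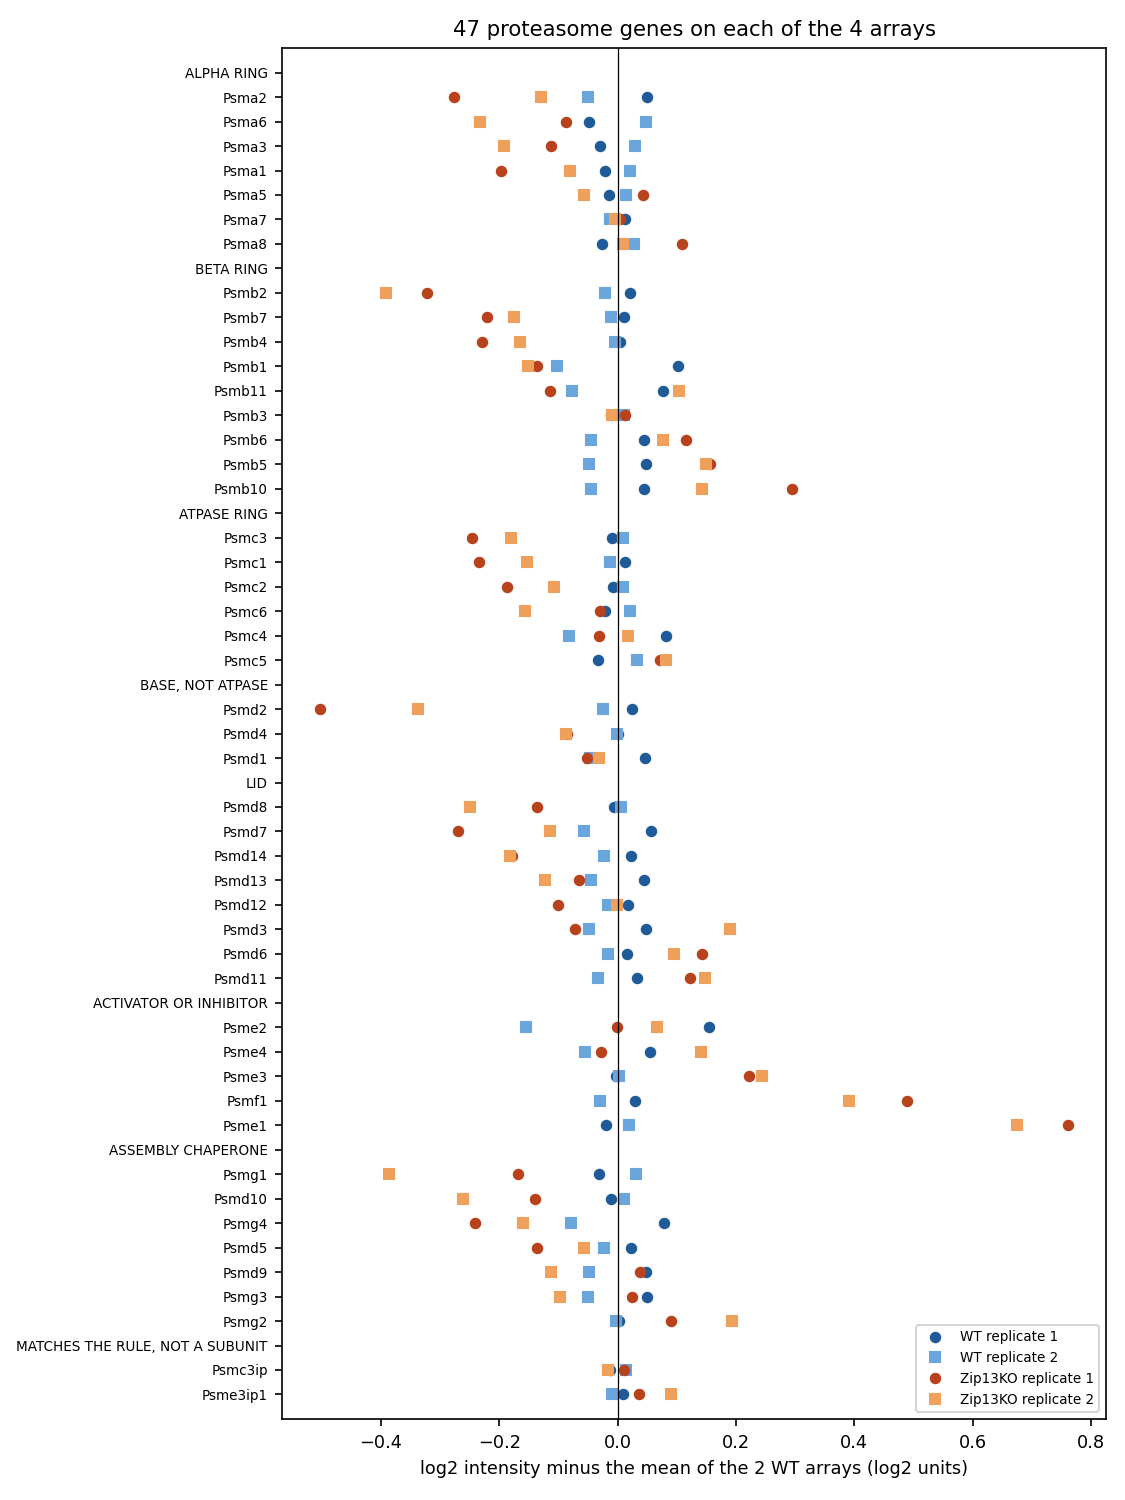
Log2 intensity of each of the 47 genes minus its mean over the WT arrays (x axis, log2 units), by role (y axis), with 1 point per array: blue for WT, red and orange for Zip13KO, circles for replicate 1 and squares for replicate 2. Both Zip13KO points of Psme1, Psmf1 and Psme3 lie to the right of the WT points, and those of Psmd2 and Psmb2 lie farthest to the left among ring and cap subunits.

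By role, the activators and inhibitors had a median difference of 0.23 log2 units. The medians of the other roles, the 2 genes that only share the name pattern left aside, lay below 0: -0.14 for the alpha ring, -0.12 for the ATPases, -0.10 for the assembly chaperones, -0.09 for the other base subunits, -0.07 for the lid and -0.00476 for the beta ring. Several of these medians moved when 1 array was left out. The beta ring was at -0.0817 without WT replicate 2, at -0.11 without Zip13KO replicate 2, at -0.00988 without WT replicate 1 and at -0.00875 without Zip13KO replicate 1. The lid was at -0.0414 without WT replicate 1, and the alpha ring at -0.0796 without Zip13KO replicate 1 and -0.0863 without Zip13KO replicate 2. The median over all 47 was -0.0214 without WT replicate 1, -0.0872 without WT replicate 2 and -0.0656 without Zip13KO replicate 2. Each role holds between 3 and 9 genes, and the differences between roles were not tested. The 33 ring and cap subunits held 5 lower calls (15.2%, beside 10.1% of all genes and 15.5% of those kept by the filter). They held 0 higher calls in limma (beside 7.00% and 10.6%), although 3 had an unadjusted p under 0.05 in the higher direction. These 3, Psmb5, Psmb10 and Psmd11, passed as higher after a further quantile normalization, so the 0 depended on the scaling. For the 28 of the 33 subunits that did not pass in the reported fit, the 95% interval of each difference stayed between -0.35 and 0.39 log2 units. For each taken by itself a change of more than 1.31-fold lay outside the interval.

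**Figure D2:**
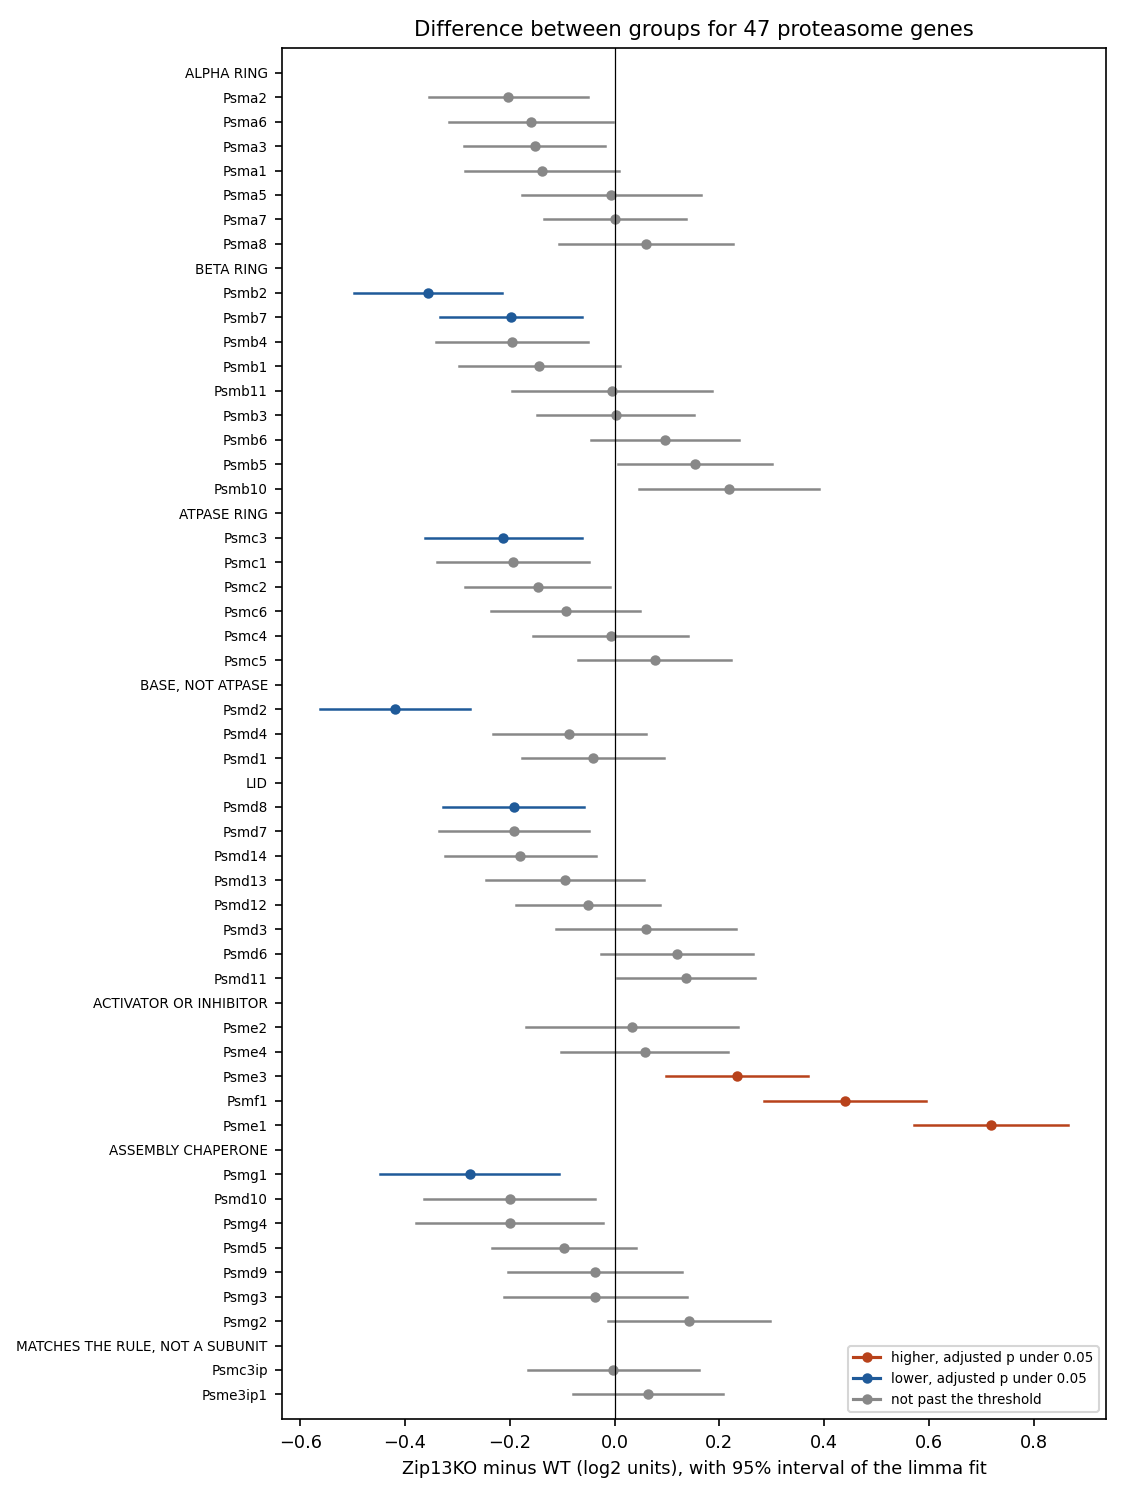
Difference between Zip13KO and WT in log2 units for the 47 genes (points) with the 95% interval of the limma fit (lines), by role, coloured by whether the adjusted p was under 0.05. The largest differences are those of Psme1 (0.72) and Psmf1 (0.44) upward and of Psmd2 (-0.42) and Psmb2 (-0.36) downward, and most other intervals include or come near 0.

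The alpha ring closes the core until a cap docks. None of its 7 measured genes passed in limma (beside 17.1% of all genes and 26.1% of those kept by the filter). For 3 of them, all lower, the unadjusted p was under 0.05 (42.9%, beside 25.9% and 37.5%). Psma2 came closest. Its log2 intensity was 10.38 and 10.28 in WT and 10.06 and 10.20 in Zip13KO, so both Zip13KO arrays lay below both WT arrays, with a mean difference of -0.20 (95% interval -0.35 to -0.05, limma adjusted p = 0.0646). Psma2 passed after the filter on low values (limma adjusted p = 0.0432) and after a further quantile normalization (0.0454). It passed without Zip13KO replicate 2 (adjusted p = 0.00743). Psma6 was at -0.16, Psma3 at -0.15 and Psma1 at -0.14 log2 units, again without overlap between the groups and without passing (adjusted p from 0.130 to 0.227). Psma7 was at 10.42, 10.40, 10.41 and 10.40 on the 4 arrays in the order WT then Zip13KO, with an interval of -0.14 to 0.14. Psma5 lay close to the array median at 6.59 to 6.62 in WT and 6.55 to 6.65 in Zip13KO in a dim row. Psma8, the alpha subunit of germ cells, lay below the array median on every array (5.95 to 6.09).

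Within the beta ring some subunits stood lower and others did not. Psmb2, a structural subunit without a cutting site, was at 10.28 and 10.24 in WT and at 9.94 and 9.87 in Zip13KO. Both Zip13KO arrays were lower, and the gene fell by 0.36 log2 units (SE 0.07), which is 1.28-fold (limma adjusted p = 8.44e-04), and passed under each of the 13 other settings tried. The 3 constitutive cutting subunits did not move together. Psmb7, which cuts after basic residues, was at 10.61 and 10.59 in WT and at 10.38 and 10.42 in Zip13KO and fell by 0.20 (SE 0.06, limma adjusted p = 0.0416). That call was lost without WT replicate 1 (adjusted p = 0.212), without WT replicate 2 (0.144) and without Zip13KO replicate 1 (0.130). Psmb5, which cuts after hydrophobic residues and is the main target of proteasome inhibitors, was at 9.64 and 9.54 in WT and 9.74 on both Zip13KO arrays, a difference of 0.15 (95% interval 0.01 to 0.30, adjusted p = 0.171). Psmb5 passed after a further quantile normalization (limma adjusted p = 0.0391). Psmb6, which cuts after acidic residues, was 0.10 higher with an interval of -0.04 to 0.24 (adjusted p = 0.431). For both, the Zip13KO arrays lay above the WT arrays, whereas those of Psmb7 lay below. Of the structural subunits, Psmb4 was at -0.20 (adjusted p = 0.0604) and Psmb1 at -0.14 (0.229), while Psmb3 had the same mean of 9.17 in both groups. Psmb11, a subunit of the thymus, was at 6.29 to 6.51 on the 4 arrays, near or below the array median.

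The ATPase ring pulls the substrate into the core. Of its 6 genes 1 passed (16.7%, beside 17.1% of all genes and 26.1% of those kept by the filter). Of the 6, 5 lay below 0 (83.3%, beside 51.1% and 53.0%). Psmc3 was at 9.43 and 9.45 in WT and at 9.19 and 9.26 in Zip13KO, without overlap, and fell by 0.21 log2 units (SE 0.07, limma adjusted p = 0.0475). Of the 9 calls it had the highest adjusted p, and it was lost without WT replicate 1 (adjusted p = 0.151), without WT replicate 2 (0.202) and without Zip13KO replicate 1 (0.199), and after a further quantile normalization (0.0639). Psmc3 is the protein-coding gene next to Slc39a13 on chromosome 2, with 0 protein-coding genes between them in the RefSeq table of assembly GRCm38.p6. Whether that place bears on its value was not tested. Psmc1 (-0.19, adjusted p = 0.0656) and Psmc2 (-0.15, adjusted p = 0.161) were lower on both Zip13KO arrays than on both WT arrays, by about as much as Psmc3, without passing. Psmc1 passed without Zip13KO replicate 2 (adjusted p = 0.0410). Psmc6 was at -0.09, Psmc4 at -0.00726 and Psmc5 at 0.08 log2 units.

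The base subunit Psmd2 fell most of the 47 proteasome genes. It is the scaffold on which shuttle proteins and the deubiquitinase Usp14 dock. Its log2 intensity was 11.25 and 11.20 in WT and 10.72 and 10.88 in Zip13KO, so both Zip13KO arrays were lower, and it fell by 0.42 (SE 0.07), which is 1.34-fold (limma adjusted p = 1.92e-04), and it passed under each of the 13 other settings. The companion scaffold Psmd1 was at -0.04 log2 units (95% interval -0.18 to 0.10) with overlapping groups. Psmd4, a ubiquitin receptor, was at 9.52 and 9.51 in WT and 9.43 on both Zip13KO arrays, -0.09 in the mean and not past the threshold (adjusted p = 0.517).

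The lid had 1 of 8 genes past the threshold (12.5%, beside 17.1% of all genes and 26.1% of those kept by the filter). Psmd8 was at 11.06 and 11.07 in WT and at 10.93 and 10.82 in Zip13KO, and fell by 0.19 log2 units (SE 0.06, limma adjusted p = 0.0468). Its call was lost without WT replicate 1 (adjusted p = 0.162), WT replicate 2 (0.196) or Zip13KO replicate 2 (0.223) and after a further quantile normalization (0.0709). Psmd14, the enzyme that removes the ubiquitin chain, and Psmd7, its partner, were lower on both Zip13KO arrays (-0.18 and -0.19) without passing (adjusted p = 0.0894 and 0.0633), and Psmd7 passed without Zip13KO replicate 2 (0.00210). Psmd11 and Psmd6 lay the other way, at 0.14 and 0.12 with Zip13KO above WT on all arrays (adjusted p = 0.175 and 0.308), and Psmd11 passed after a further quantile normalization (0.0468). Psmd13 was at -0.09, Psmd12 at -0.05 and Psmd3 at 0.06, and the groups overlapped for Psmd12 and Psmd3.

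The activators and inhibitors held the largest differences, those of Psme1 and Psmf1, and such differences were not shared by all of the group. Psme1, the alpha subunit of the PA28 ring, was at 9.29 and 9.33 in WT and at 10.07 and 9.98 in Zip13KO. It rose by 0.72 log2 units (SE 0.07), which is 1.65-fold (limma adjusted p = 5.66e-07), and stayed between 0.68 and 0.76 under the 13 other settings, past the threshold in each. Psme2, the beta subunit of the same ring, was at 7.21 and 6.90 in WT and at 7.05 and 7.12 in Zip13KO. The Zip13KO values of Psme2 lay between the WT values, and the difference was 0.03 with an interval of -0.17 to 0.23 (adjusted p = 0.901), below the interval of Psme1 (0.57 to 0.87). Psme2 also had a wider spread in WT (SD 0.22, n = 2) than Psme1 (SD 0.03, n = 2), and its row was closer to the array median. Psmf1, which encodes PI31, a protein that binds the core and inhibits it in vitro, was at 8.95 and 8.89 in WT and at 9.40 and 9.31 in Zip13KO, a rise of 0.44 (SE 0.07) or 1.36-fold (limma adjusted p = 2.61e-04) that passed under each of the 13 other settings. Psme3, which forms the nuclear PA28 gamma ring, was at 10.35 on both WT arrays and at 10.57 and 10.59 in Zip13KO, and rose by 0.23 (SE 0.06, limma adjusted p = 0.0153). The call of Psme3 was lost without WT replicate 1 (adjusted p = 0.0907) and without WT replicate 2 (0.0809). Psme4, the PA200 activator, was at 0.06 (95% interval -0.10 to 0.22) with overlapping groups.

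**Figure D3:**
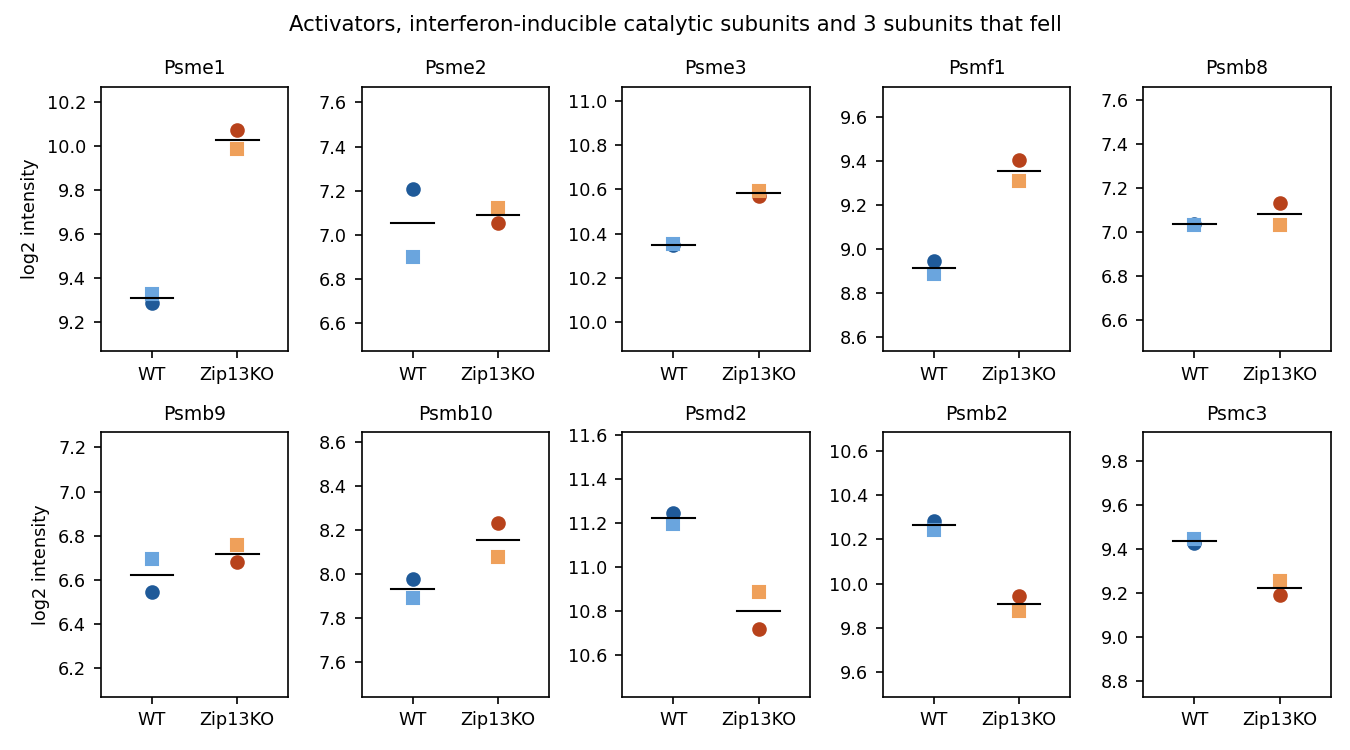
Log2 intensity (y axis, each panel spanning 1.2 log2 units around its own mean) of 10 genes on the 4 arrays: circles for replicate 1, squares for replicate 2, and a bar for the mean of the 2 arrays of a group. Psme1 shows the widest gap (9.31 against 10.03), Psme2 and Psmb8 show none, and Psmd2, Psmb2 and Psmc3 show lower Zip13KO values.

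Psme1 and Psme2 lie close together on chromosome 14, with 1 protein-coding gene, Emc9, between them. Their promoters are printed because one gene rose and the other was not past the threshold. Each sequence runs from 250 bases before to 50 after the RefSeq start of the gene in build GRCm38.p6, 5′ to 3′ along the gene, and capitals mark the core letters of the interferon-stimulated response element, which is GAAA, any 2 bases and GAAA again, on either strand. Psme1 is on the plus strand at chr14:55578244-55578543, and the Psme2 window is on the minus strand at chr14:55591052-55591351.
Psme1: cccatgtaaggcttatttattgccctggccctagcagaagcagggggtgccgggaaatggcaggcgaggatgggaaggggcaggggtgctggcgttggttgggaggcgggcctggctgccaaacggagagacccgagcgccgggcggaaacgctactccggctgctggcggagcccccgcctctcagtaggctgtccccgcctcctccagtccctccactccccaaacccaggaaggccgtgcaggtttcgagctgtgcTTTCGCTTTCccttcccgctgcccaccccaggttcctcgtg
Psme2: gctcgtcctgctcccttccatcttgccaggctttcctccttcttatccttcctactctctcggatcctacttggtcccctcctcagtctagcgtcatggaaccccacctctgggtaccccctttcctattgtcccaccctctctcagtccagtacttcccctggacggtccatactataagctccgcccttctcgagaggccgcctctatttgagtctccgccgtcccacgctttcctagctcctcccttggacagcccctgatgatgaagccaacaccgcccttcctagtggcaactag
The letters were found 1 time in the Psme1 window, just after the start, and not in the printed Psme2 window or in the other window that RefSeq gives for Psme2. This says only which letters these windows hold.

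The subunits that interferons raise in exchange for the cutting ones did not pass beside Psme1. Psmb10 was at 7.98 and 7.89 in WT and at 8.23 and 8.08 in Zip13KO, higher on both arrays by 0.22 log2 units (95% interval 0.05 to 0.39, limma adjusted p = 0.0811), and it passed without Zip13KO replicate 2 (adjusted p = 0.0277) and after a further quantile normalization (0.0482). Psmb8 was at 7.04 and 7.03 in WT and at 7.13 and 7.03 in Zip13KO, a difference of 0.05 (95% interval -0.12 to 0.22, adjusted p = 0.805). Psmb9 was at 0.10 (95% interval -0.08 to 0.28, adjusted p = 0.556) with overlapping groups. Of these 3 catalytic subunits and the pair Psme1 and Psme2, then, Psme1 alone passed in limma, and the intervals of the others leave room for rises of up to 0.39.

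Among the assembly chaperones 1 of 7 genes passed (14.3%, beside 17.1% of all genes and 26.1% of those kept by the filter). Of the 7 chaperones 6 lay below 0 (85.7%, beside 51.1% and 53.0%). Psmg1, which pairs with Psmg2 to guide the alpha ring, was at 9.22 and 9.28 in WT and at 9.08 and 8.86 in Zip13KO, and fell by 0.28 log2 units (SE 0.08, limma adjusted p = 0.0225). Its call was lost without WT replicate 2 (adjusted p = 0.117) and without Zip13KO replicate 2 (0.238, with a difference of -0.17), and its Zip13KO arrays differed from each other more than its WT arrays (SD 0.15 against 0.04, n = 2 each). Its partner Psmg2 was at 8.95 and 8.94 in WT and at 9.03 and 9.14 in Zip13KO, 0.14 higher (95% interval -0.01 to 0.30, adjusted p = 0.246). The other alpha ring pair was at -0.20 for Psmg4 (adjusted p = 0.134) and -0.04 for Psmg3 (0.864). Of the chaperones of the ATPase base, Psmd10 (gankyrin) was at -0.20 (adjusted p = 0.0942), Psmd5 at -0.10 and Psmd9 at -0.04. The 2 genes that only share the name pattern did not pass: Psmc3ip, a meiotic recombination factor, was at 7.64 to 7.67 on all arrays, and Psme3ip1, which binds Psme3, was 0.06 higher (adjusted p = 0.656).

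Settings beside those named so far also ended calls. A fit over all rows ended those of Psme3, Psmd8, Psmb7, Psmc3 and Psmg1, a block for the replicate number ended those of Psme3, Psmd8, Psmb7 and Psmc3, and eBayes without an intensity trend ended those of Psmd8, Psmb7 and Psmc3. Over all genes the fit over all rows called 8.14%, the block 15.2% and the fit without a trend 16.3%.

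**Figure D4:**
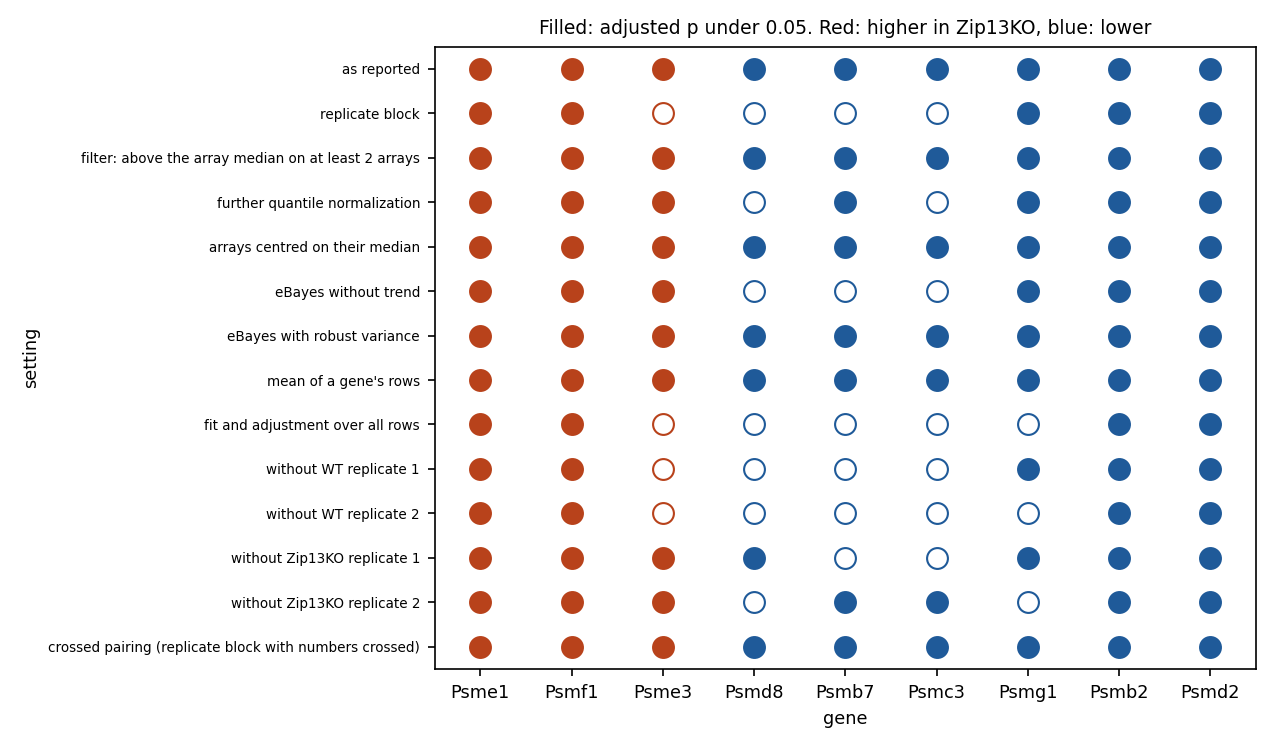
The 9 genes past the threshold (x axis) under the reported setting and each of the 13 others (y axis): a filled circle is an adjusted p under 0.05, an open one is not, red is higher and blue lower in Zip13KO. Psme1, Psmf1, Psmb2 and Psmd2 are filled throughout, while Psme3, Psmd8, Psmb7, Psmc3 and Psmg1 are open under 3 or more settings.

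Companion genes, which are Psmb8, Psmb9 and genes that work with the proteasome without carrying a Psm name, moved both ways. Of 28 measured, 3 rose and 8 fell (39.3% called, beside 17.1% of all genes). In the same fit 26.1% of the genes that pass the filter on low values were called, and all 28 pass it. The lists were chosen with earlier results of these data known, so the shares given here and below are descriptions, not tests. Among 7 further parts of the proteasome, 2 fell (28.6%, beside 10.1% of all genes and 15.5% of those that pass the filter). Pomp, the maturation factor of the beta ring, was at 10.38 on both WT arrays and at 10.20 and 10.10 in Zip13KO, a fall of 0.23 log2 units (SE 0.07, limma adjusted p = 0.0218). The call of Pomp was lost without WT replicate 1 (adjusted p = 0.101), without WT replicate 2 (0.100) and without Zip13KO replicate 2 (0.115). Ecpas, which tethers the cap to the core, fell by 0.30 (SE 0.09, limma adjusted p = 0.0208), and lost its call without WT replicate 1 (0.235) and without Zip13KO replicate 1 (0.178), where the difference was -0.21 and -0.19. The deubiquitinases Usp14 and Uchl5 were at 0.12 and 0.03 and did not pass.

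Of 9 measured genes that control proteasome genes or proteasome location, 2 rose and 3 fell (55.6% called, beside 17.1% of all genes and 26.1% of those that pass the filter on low values). Nfe2l1, the main activator of subunit genes, was at 9.51 and 9.35 in WT and at 9.40 and 9.32 in Zip13KO, a difference of -0.07 (95% interval -0.23 to 0.09, adjusted p = 0.671), and Nfe2l2 was at 0.10 (adjusted p = 0.402). Ngly1, the glycanase that Nfe2l1 needs to become active, was at 7.72 and 7.70 in WT and at 8.00 and 8.09 in Zip13KO and rose by 0.34 log2 units (SE 0.08, limma adjusted p = 0.00484). Stat3, a transcription factor reported to act on beta subunit genes, was at 10.13 and 10.07 in WT and at 9.37 and 9.55 in Zip13KO and fell by 0.64 (SE 0.07), which is 1.56-fold (limma adjusted p = 5.51e-06). It passed under each of the 13 other settings. Akirin2, which carries proteasomes into the nucleus, fell by 0.31 (limma adjusted p = 0.00333). The subunits of NF-Y, which binds CCAAT boxes, went apart: Nfya rose by 0.30 (adjusted p = 0.00478), Nfyc fell by 0.24 (0.0228) and Nfyb was at 0.09 (0.537). Without WT replicate 2 neither Nfya (adjusted p = 0.0570) nor Nfyc (0.246) passed.

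Upstream of the cap, 3 of 9 shuttles and p97 components fell (33.3%). Of all genes 10.1% fell, as did 15.5% of those that pass the filter on low values. None of the 9 rose in limma, where 1 had an unadjusted p under 0.05 in the higher direction. Vcp, the p97 ATPase that pulls ubiquitinated proteins out of membranes and complexes, was at 11.15 and 11.00 in WT and at 10.44 and 10.77 in Zip13KO, and fell by 0.47 log2 units (SE 0.09), which is 1.38-fold (limma adjusted p = 8.05e-04). Its Zip13KO arrays differed by more than its WT arrays (SD 0.24 against 0.11, n = 2 each) without overlap, and without Zip13KO replicate 1 the difference was -0.30. Ufd1, a cofactor of p97, was at 10.03 on both WT arrays and at 9.73 and 9.61 in Zip13KO, a fall of 0.37 (SE 0.07, limma adjusted p = 9.90e-04) that passed under each of the 13 other settings. Nploc4, which pairs with Ufd1, was at 0.18 the other way and did not pass (adjusted p = 0.0562), though it did after a filter on low values (0.0369). Rad23b, a shuttle that docks on Psmd2, fell by 0.28 (limma adjusted p = 0.00378) and lost its call without WT replicate 1 (0.0676). The ubiquilins did not pass, with Ubqln1 at -0.20 (adjusted p = 0.0611, and 0.00491 without Zip13KO replicate 2). Uba6, which activates ubiquitin at the start of the chain of transfer, rose by 0.37 (SE 0.07, limma adjusted p = 0.00144).

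Of the 11 companion calls, a fit over all rows kept Stat3 and Ufd1 and ended the other 9: Vcp (adjusted p = 0.0884), Uba6 (0.0562), Akirin2 (0.0549), Ngly1 (0.0582), Nfya (0.0628), Nfyc (0.121), Pomp (0.118), Ecpas (0.201) and Rad23b (0.0597). A block for the replicate number ended those of Pomp (adjusted p = 0.0801) and Nfyc (0.0772).

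**Figure D5:**
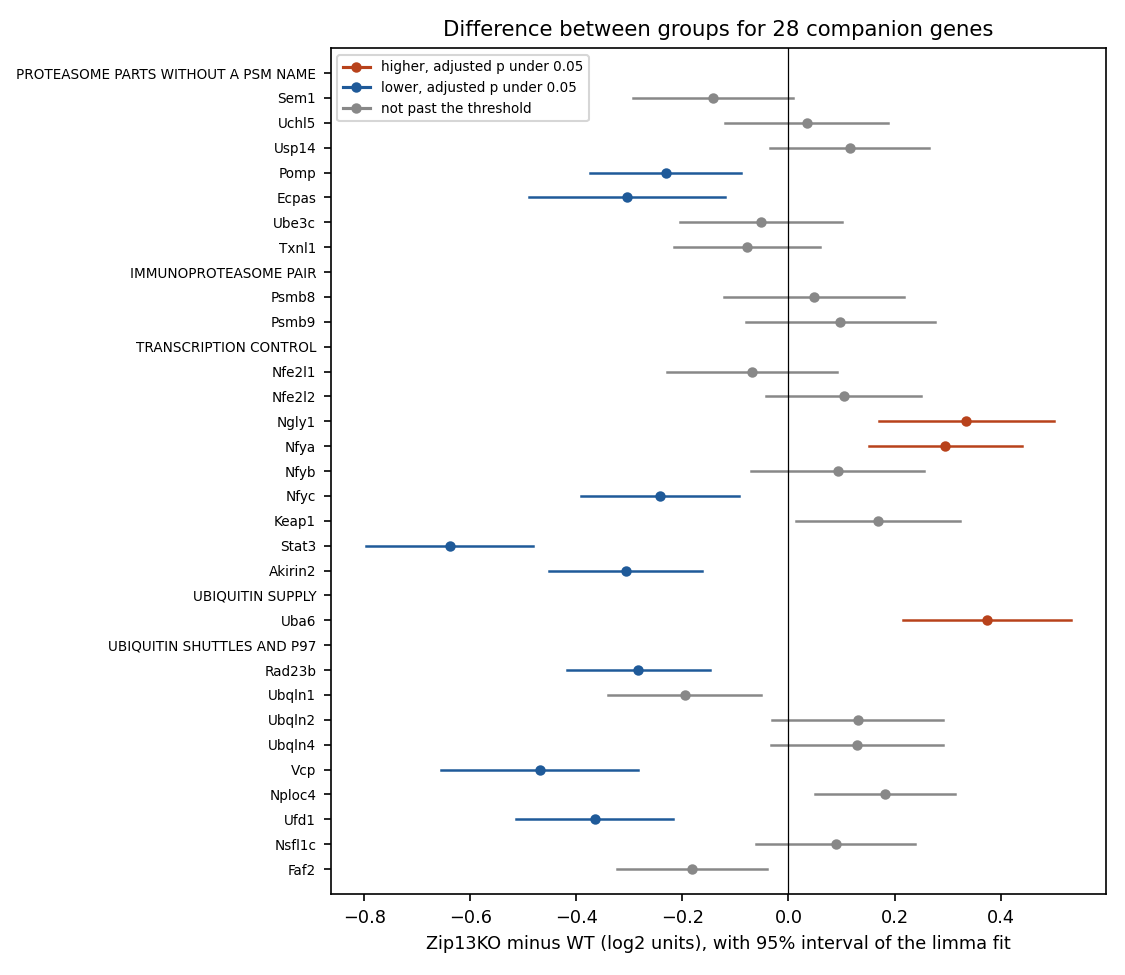
Difference between Zip13KO and WT in log2 units for the 28 companion genes (points) with the 95% interval of the limma fit (lines), by list, coloured by whether the adjusted p was under 0.05. Stat3 (-0.64), Vcp (-0.47) and Ufd1 (-0.37) are lowest, and Uba6 (0.37) and Ngly1 (0.34) are highest.

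The promoters of the proteasome genes were searched for 4 short motifs on both strands, in the same windows of 300 bases. RefSeq windows were at hand for 39 of the 47 genes, and for Psmb2, Psmb7 and Psmc3 among the genes that fell none was used here. The core of the antioxidant response element, TGACNNNGC, through which Nfe2l1 and Nfe2l2 act, was found in 6 of 39 genes (15.4%, beside 14.0% of 27025 genes with a window). None of those 6 genes, Psmb5, Psmb6, Psmc6, Psmd9, Psmd12 and Psme4, passed the test in limma. The CCAAT box was found in 15 of 39 (38.5%, beside 41.1%), with Psme3 the 1 that passed. The STAT core TTCNNNGAA was found in 2 of 39 (5.13%, beside 9.55%), Psmd2 and Psmg1, both of which fell. The interferon core was found in 5 of 39 (12.8%, beside 3.99%), and 1 of these, Psme1, passed. No match of one motif overlapped a match of another. Such matches are descriptions of letters, not of bound sites.

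The 5 windows with the interferon core are shown with 10 bases on each side, to set the gene that rose beside the 4 that did not pass. Capitals mark the core, and the sequences are from RefSeq on build GRCm38.p6, each along its own gene: Psmb3 at chr11:97703261-97703290 (plus strand), Psmd4 at chr3:95042675-95042704 (minus strand), Psmd9 at chr5:123228021-123228050 (plus strand), Psme1 at chr14:55578493-55578522 (plus strand) and Psmg4 at chr13:34162969-34162998 (plus strand).
Psmb3: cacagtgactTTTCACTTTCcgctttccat
Psmd4: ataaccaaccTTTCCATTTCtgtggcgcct
Psmd9: gggacagaatGAAAAAGAAAggaatgaaca
Psme1: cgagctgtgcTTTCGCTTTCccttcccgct
Psmg4: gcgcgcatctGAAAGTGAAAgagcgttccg
Psme1 was 0.72 log2 units higher in Zip13KO. The other 4 had differences of 0.00188 (Psmb3), -0.09 (Psmd4), -0.04 (Psmd9) and -0.20 (Psmg4). Whether the core bears on any of these values was not tested.

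The promoter of Psmd2, the subunit that fell most, is at chr16:20651402-20651701 on the plus strand of the same build, with the STAT core in capitals.
Psmd2: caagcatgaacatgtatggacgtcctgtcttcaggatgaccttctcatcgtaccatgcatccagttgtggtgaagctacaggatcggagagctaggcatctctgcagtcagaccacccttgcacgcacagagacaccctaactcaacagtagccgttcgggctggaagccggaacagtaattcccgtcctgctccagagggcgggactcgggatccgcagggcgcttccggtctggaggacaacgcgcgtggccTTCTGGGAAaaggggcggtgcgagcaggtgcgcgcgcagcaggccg
The core lies close to the start of the gene. The other gene with these letters, Psmg1, fell by 0.28 log2 units. Whether the letters bear on either fall was not tested.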

How the data were processed

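Total RNA from fibroblasts had been hybridised to single-colour Affymetrix Mouse Gene 2.0 ST arrays, 1 per sample. The authors deposited linear intensity (21.8 to 10826). The submitters' processing notes name Affymetrix Expression Console and RMA, with no version. RMA subtracts background, evens out the arrays and fits 1 value per probe set in log2, so the deposited intensity was probably converted back from log2. Normalization between arrays hides a change shared by most genes. The sources used here give no annotation, summary level, batch or scan date. The log2 of each value was taken, with no pseudocount.

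Gene names came from the platform annotation: 23521 of 41345 rows had 1 symbol, 1814 several and 16010 none. Of the first, 23328 matched the RefSeq table of GRCm38.p6 by gene ID, which changed 0 symbols. The brightest row per gene was kept, leaving 22180 genes. These were tested together with limma 3.58.1 in R 4.3.3 (eBayes with an intensity trend, two-sided, Benjamini-Hochberg over genes, threshold 0.05, 2 residual and 15.1 prior degrees of freedom), after the script had been tested on simulated data. There 18% of 50 genes changed by 0.25 log2 units were recovered, and 100% of those changed by 0.5 or 1. Of its 173 calls 14 were false. The real data held 3786 calls, so these shares cannot be carried over as they stand. Differences are Zip13KO minus WT. Lists are described by counts and medians only. Replicate numbers were not taken to pair samples: there are 2 pairs, and deviations of same-numbered arrays correlated at -0.16 over genes.

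All genes of the rule could be named, with fuller values for those past the threshold, and all companion genes past it. The members and lists were chosen with earlier results of these data known. Alternatives were a replicate block, a filter on low values (2 or more arrays above their median), quantile normalization, median centring, averaging the rows of each gene, robust eBayes, eBayes with no trend, fitting every row, and leaving out arrays singly. A lone array is assumed to scatter as the other group does. Crossed replicate numbers were added after seeing the data. Figures used Python 3.11.15 and matplotlib 3.10.9.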

Additional observations from a re-analysis of the deposited data

How the results depend on the processing

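No gene followed (47 proteasome and 28 companion genes, 13 settings) changed sign where it was past the threshold in either fit. Of 973 pairs of gene and setting, 892 kept their side of the threshold, 46 lost it and 35 gained it, and 31 changed sign without a call on either side. Lower proteasome genes numbered 6 as reported, 3 with the replicate block, 3 with eBayes without trend, 2 when the fit and adjustment ran over all rows (1806 of all genes called, beside 3786) and 10 after the filter on low values, where the beta ring median was -0.0710. A further quantile normalization gave 6 higher genes and medians of -0.12 for the alpha ring, -0.0911 for the ATPases, -0.0338 for the other base subunits and 0.26 for the activators. The mean of a gene's rows put the ATPases at -0.14. Leaving out 1 array in turn gave 2 to 4 higher and 2 to 7 lower genes, and medians of -0.0872 to -0.0214 over all 47, -0.15 to -0.0796 for the alpha ring, -0.11 to -0.00875 for the beta ring, -0.10 to -0.0414 for the lid, -0.14 to -0.11 for the ATPases and -0.14 to -0.0741 for the assembly chaperones. Replicate numbers were not taken to pair the samples, and the block took the count of all genes from 3786 to 3364. Crossed numbers, chosen after seeing the data, gave 5 higher and 16 lower proteasome genes (44.7% called, beside 23.5% of all genes). Dim rows such as Psma5 and Psme2 limit what could be seen, as do 2 arrays per group.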

Other observations

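Some proteasome genes had rows that entered no comparison. Psma4, the remaining alpha subunit, shared both of its rows with the symbol AY074887. The brighter row was at 10.29 and 10.20 in WT and at 10.18 and 10.25 in Zip13KO, a difference of -0.03 log2 units with overlapping groups, and the dimmer one was at -0.12. A second row of the ATPase Psmc2 was at 8.34 and 8.53 in WT and at 8.24 and 8.20 in Zip13KO, -0.22 beside -0.15 in the row used. The second row of Psmg2 was at 7.66 and 7.74 in WT and at 7.52 and 7.70 in Zip13KO, -0.09 where the row used was at 0.14, so the 2 rows of this gene differed in sign. Psma5 had a second row at 5.65 and 5.63 in WT and at 5.77 and 6.01 in Zip13KO, below the array median throughout, with a difference of 0.25. A row that Psme2 shares with 9930111J21Rik1 and 9930111J21Rik2 was at 6.92 and 6.75 in WT and at 6.73 and 6.85 in Zip13KO, a difference of -0.04, close to the 0.03 of the row used. Psmd1 shared a row with Armc9 that differed by 0.07. These rows were chosen for their names, not their values, and were not tested.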
